A study of Mus musculus with 6 samples.

Results

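Genes of the proteasome were examined in mouse embryonic stem (ES) cells in which Ep400, the ATPase of the Tip60-p400 chromatin remodelling complex, had been targeted by a short hairpin RNA (shRNA). Members were every gene symbol of the array annotation that begins with Psma, Psmb, Psmc, Psmd, Psme, Psmf or Psmg and then a digit, which gave 49 symbols on 86 probes, out of 19057 symbols and 45281 probes on the array. Of these, 47 are proteasome subunits, activators or assembly factors, and the other 2, Psmc3ip and Psme3ip1, are named for a partner and are kept apart. The data were 6 Illumina bead arrays of total RNA, 3 from cells labelled control and 3 from cells labelled shRNA Ep400 (shEp400). Culture was in 15% serum with the cytokine LIF over embryonic fibroblasts arrested with mitomycin C, and the cells were electroporated with a pHYPER vector, and underwent puromycin selection that began at 24 h and lasted 48 h. The labels name neither the ES cell line nor the insert of the control vector, and do not mention removal of the fibroblasts. Whether arrays of a group stem from separate cultures is not in the labels, and the p-values therefore measure only how much these samples vary, possibly for technical reasons.

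The proteasome is the protease that degrades ubiquitin-tagged proteins. Its barrel-shaped 20S core is a stack of rings of alpha and beta subunits, in which Psmb5, Psmb6 and Psmb7 carry the cutting sites. The 19S cap binds ubiquitin chains, removes them and unfolds the substrate with a ring of ATPases. Interferon-induced cells and cells of the immune system exchange the cutting subunits for Psmb8, Psmb9 and Psmb10, which gives the immunoproteasome and peptides suited to MHC class I molecules. In ES cells high proteasome activity has been linked to the maintenance of pluripotency.

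The stretches just upstream of the annotated starts of the immunoproteasome genes and of their counterparts Psmb5 and Psmb6 are shown because Psmb8 rose and Psmb10 fell while Psmb9, Psmb5 and Psmb6 did not pass the test, and that of Psmd8 because it rose most among the members. Each holds 250 bases, 5′ to 3′ on the strand of the gene, from RefSeq (GRCm38.p6). They lie at chr17:34197945-34198194 (plus strand) for Psmb8, chr17:34187331-34187580 (minus strand) for Psmb9, chr8:105938393-105938642 (minus strand) for Psmb10, chr14:54617996-54618245 (minus strand) for Psmb5, chr11:70525107-70525356 (plus strand) for Psmb6 and chr7:29180674-29180923 (minus strand) for Psmd8. Capitals mark matches, on either strand, to 4 motifs: TGACNNNGC (the core of the antioxidant response element, to which Nfe2l1 and Nfe2l2 bind), the interferon regulatory factor element (TTTC, any 2 bases, TTTC), TTCNNNGAA (the gamma-activated site of STAT factors, which reads the same on both strands) and CCAAT (NF-Y).
Psmb8: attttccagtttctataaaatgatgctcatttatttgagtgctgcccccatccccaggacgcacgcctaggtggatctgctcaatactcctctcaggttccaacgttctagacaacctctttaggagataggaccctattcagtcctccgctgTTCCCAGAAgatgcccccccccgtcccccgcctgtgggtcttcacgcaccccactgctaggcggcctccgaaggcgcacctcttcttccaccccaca
Psmb9: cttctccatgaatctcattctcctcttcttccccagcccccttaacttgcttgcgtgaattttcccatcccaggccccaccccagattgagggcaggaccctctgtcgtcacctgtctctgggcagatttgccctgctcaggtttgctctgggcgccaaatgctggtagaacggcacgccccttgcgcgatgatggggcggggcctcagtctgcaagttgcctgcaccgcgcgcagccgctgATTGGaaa
Psmb10: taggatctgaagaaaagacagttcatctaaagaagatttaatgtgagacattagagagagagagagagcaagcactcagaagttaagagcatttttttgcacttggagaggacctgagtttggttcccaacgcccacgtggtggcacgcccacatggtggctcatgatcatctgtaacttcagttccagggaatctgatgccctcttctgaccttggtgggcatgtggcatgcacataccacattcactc
Psmb5: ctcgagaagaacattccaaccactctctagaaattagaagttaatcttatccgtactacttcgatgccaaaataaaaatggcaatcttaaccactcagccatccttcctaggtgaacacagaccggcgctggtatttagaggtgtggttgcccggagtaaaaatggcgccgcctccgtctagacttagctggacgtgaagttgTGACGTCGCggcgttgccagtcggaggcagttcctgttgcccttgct
Psmb6: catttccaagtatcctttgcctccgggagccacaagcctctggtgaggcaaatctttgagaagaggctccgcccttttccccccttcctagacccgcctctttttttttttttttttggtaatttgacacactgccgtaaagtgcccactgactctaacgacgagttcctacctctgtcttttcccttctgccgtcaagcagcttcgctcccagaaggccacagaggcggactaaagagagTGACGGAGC
Psmd8: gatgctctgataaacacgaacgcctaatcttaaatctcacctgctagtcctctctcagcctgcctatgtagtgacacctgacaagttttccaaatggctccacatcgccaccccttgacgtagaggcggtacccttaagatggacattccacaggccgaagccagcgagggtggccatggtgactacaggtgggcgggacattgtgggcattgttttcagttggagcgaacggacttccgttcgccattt
In the Psmb8 window TTCNNNGAA matched from 97 to 89 bases before the start, and in the Psmb9 window CCAAT matched on the opposite strand from 8 to 4 bases before it. TGACNNNGC matched from 47 to 39 bases before the start of Psmb5 and from 9 to 1 bases before that of Psmb6. The windows of Psmb10 and Psmd8 held no match to these letters. Of the 49 symbols 41 had a promoter entry, with 45 windows in all. TGACNNNGC stood in 11.1% of them and in 10.2% of all 32851 windows, the interferon regulatory factor element in 6.67% against 2.98%, TTCNNNGAA in 4.44% against 7.02%, and CCAAT in 35.6% against 33.8%. The 6.67% stands for 3 windows, those of Psmb3, Psmd4 and Psmd9, none of which passed the test. A match is a description of the letters and not a binding site.

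Of the 86 probes 66 passed the filter on dim probes (detection p below 0.01 on 3 or more arrays) and 17 were above background on no array. They gave a value to 42 of the 49 symbols, and to 40 of the 47 proteasome genes, each represented by its brightest probe. Untested were the alpha subunits Psma1, Psma3 and Psma6, the ATPase Psmc6, the cap subunit Psmd3, the assembly factor Psmg4 and Psmb11, the thymus-specific beta subunit. The probes of these 7 genes were not well above background on any array, which gives no level for their transcripts. Log2 values are background-corrected and quantile-normalized signals, and log2 changes are shEp400 minus control with their standard error (SE). Adjusted p-values are limma's, adjusted over all 9736 tested genes with the Benjamini-Hochberg method.

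Most proteasome genes differed little between the groups, and a few moved strongly and in opposite directions. Among the 42 tested symbols 2 rose and 10 fell (limma adjusted p under 0.05). Among the 40 proteasome genes 2 rose and 9 fell, which is 27.5% called, where 43.7% of all 9736 tested genes were called (20.6% higher and 23.1% lower). The rises are 5% of the 40 genes and the falls 22.5%. Calls of at least 1.5-fold came to 7 of 40 genes, against 37.7% of all tested genes. The groups' values did not overlap for 22 of the 40 genes, 3 with shEp400 above control and 19 below, where 55.5% of all tested genes did not overlap (25.1% above and 30.3% below). The median log2 change was -0.25 over the 40 genes and -0.06 over all tested genes, and 29 of the 40 changes were negative. The plot of cumulative changes shows the narrow spread of the members.

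**Figure D1:**
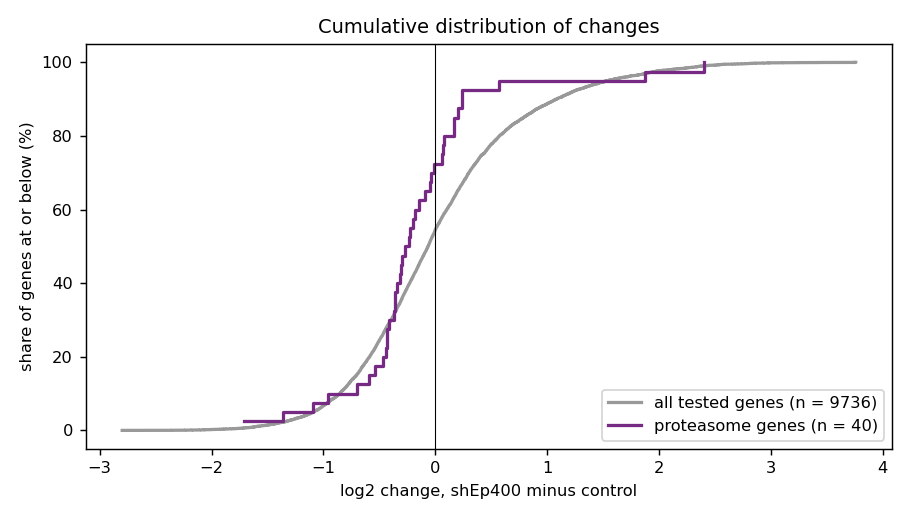
Cumulative share of genes (vertical axis, percent) against log2 change, shEp400 minus control (horizontal axis), for all 9736 tested genes (grey) and the 40 tested proteasome genes (purple). The purple line is steep just below 0, around its median of -0.25, and its ends reach from -1.71 (Psmb10) to 2.41 (Psmd8).

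For the 29 proteasome genes that did not pass, the 95% interval of the log2 change shows which changes could have gone unseen. This holds for the main scaling and the brightest probe only. Other scalings or probes gave values outside the interval for some genes, such as Psma5 (-0.73 with 75th percentile scaling). The interval lay within -1 and 1, a 2-fold difference either way, for 27 of the 29. The exceptions were Psmd6, a cap subunit whose dim probe was detected on 3 control and 2 shEp400 arrays (log2 change -0.70, interval -1.52 to 0.13), and Psmb5 (0.57, interval -0.02 to 1.15).

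How many members fell depended on how the arrays were scaled, and the count was lower in every fit without 1 array. The count that rose stayed at 2 under every scaling. Of the 42 symbols 6 fell with cyclic loess, where 17.1% of all tested genes fell. With 75th percentile scaling 22 fell, where 28.3% of all tested genes did. Centring on probes detected on every array also gave 22, where 26.3% of all tested genes fell. Another scaling moved the median of all genes too, by 0.11 with cyclic loess and by -0.11 with 75th percentile scaling. Relative to the median of all genes, the median of the 40 proteasome genes lay at -0.18 with the main scaling, -0.16 with cyclic loess and -0.33 with 75th percentile scaling. Without 1 array the count that fell was 6 (control 1), 5 (control 2), 6 (control 3), 8 (shEp400 1), 6 (shEp400 2) or 9 (shEp400 3). Such fits have fewer arrays for every gene, and the share of all tested genes that fell in them is not given here. The called members whose calls held in all 18 other settings were Psmb8, Psmb10, Psmd8, Psma8, Psmg1, Psmg2 and Psmc3ip.

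**Figure D2:**
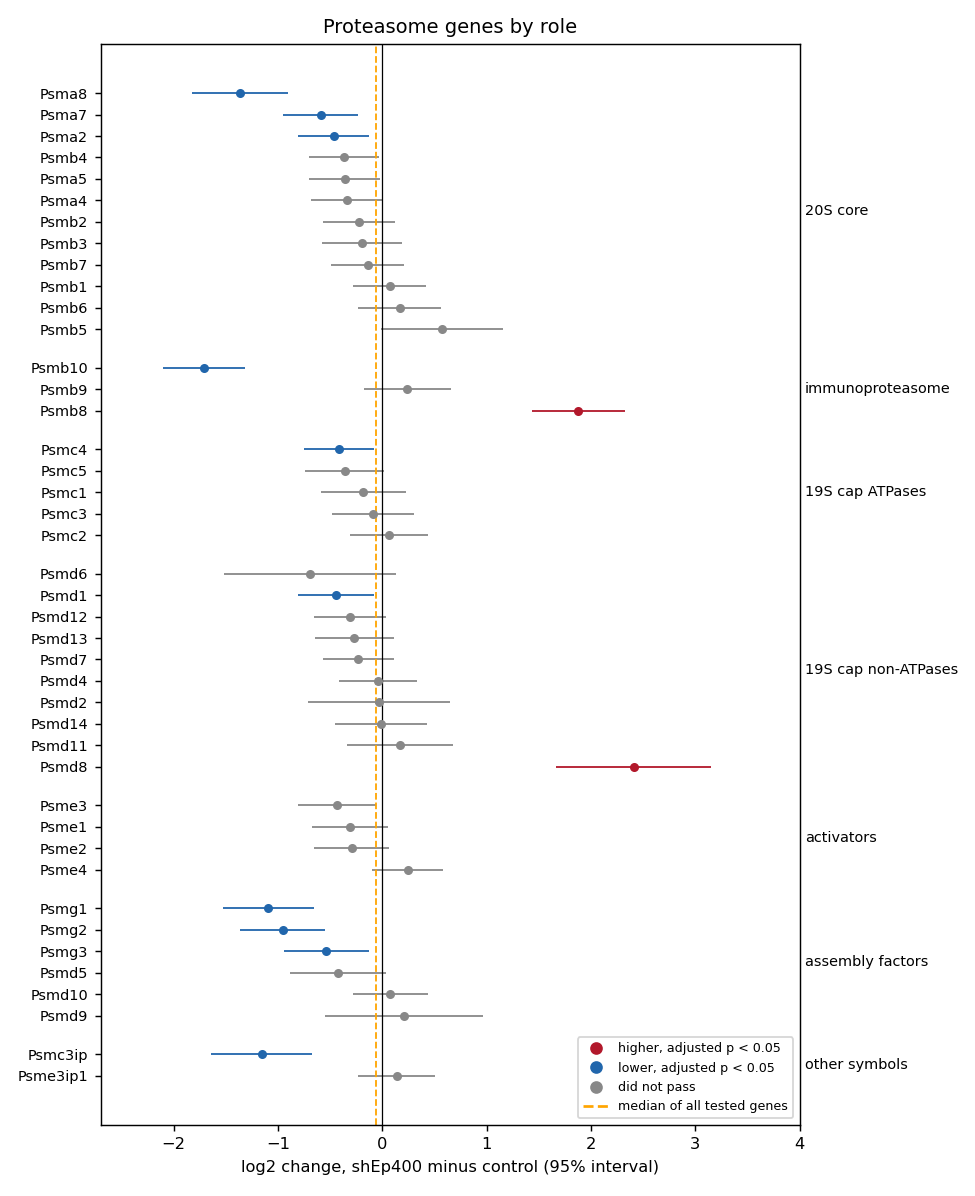
Log2 change, shEp400 minus control, of the 42 tested symbols grouped by role (points) with the 95% interval from limma (bars). Red points rose, blue points fell, grey points did not pass, and the dashed line is the median of all tested genes. Most points lie between -0.70 and 0.57, while Psmd8 (2.41) and Psmb8 (1.88) stand to the right. Psmb10 (-1.71), Psma8 (-1.36), Psmc3ip (-1.16), Psmg1 (-1.09) and Psmg2 (-0.96) stand to the left.

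Markers of other cells differed between the groups too. Of all tested genes 20.6% rose and 23.1% fell. Feeder fibroblast markers rose in 31 of 35 tested cases (88.6%, with 40 of 41 on the array) and 0 fell. The log2 of their summed signal was 14.37 to 14.50 on control arrays and 16.2 to 16.9 on shEp400 arrays. Of 7 defining markers Col1a1 (7.64-fold) and Thy1 (2.45-fold) rose, and Col1a2 and Pdgfrb did not pass. Col3a1 and Fap were not tested, since they did not pass the filter on dim probes, and Postn was detected on no array. On shEp400 arrays 1, 2 and 3 the median of the tested feeder markers stood 1.58, 2.14 and 2.41 log2 units above control. ES cell markers fell in 6 of 12 cases (50%, against 23.1% of all tested genes) and 1 rose. The log2 of their summed signal was 16.1 to 16.2 in control and 15.6 to 16.04 in shEp400. All 12 ES cell markers were detected on all arrays, among them Pou5f1 and Nanog, which did not pass. The 6 that fell were Utf1 (log2 change -1.77), Sox2 (-1.60), Lin28a (-1.25), Tdgf1 (-0.84), Klf4 (-0.79) and Esrrb (-0.69), and Sall4 rose (0.52). Primitive endoderm markers rose in 5 of 6 tested cases (83.3%, against 20.6% of all tested genes) and 0 fell. Their summed log2 signals were 9.84 to 10.1 in control and 11.8 to 12.1 in shEp400. For blood cells, whose immunoproteasome is constitutive, 0 of 5 tested markers rose and 1 fell (20%, near the 23.1% of all tested genes). Their summed log2 signals were 11.94 to 11.99 in control and 11.4 to 12.3 in shEp400. Of the 4 defining blood markers on the array Ptprc and Itgam were detected on no array. Cd3e, also defining, was detected on 3 control and 2 shEp400 arrays and fell (log2 change -0.95, limma adjusted p = 0.0111). The brightest tested blood marker was Laptm5, with mean log2 signals of 11.9 in control and 11.6 in shEp400. The part of these cells in the proteasome results was not tested, and fewer cells of a type cannot be told apart from less RNA per cell. The groups lay at separate positions of 1 slide (control at F, E and D, shEp400 1, 2 and 3 at C, B and A), and the effect of position cannot be told apart from that of the group. Ep400, the targeted gene, fell (log2 change -0.58 ± 0.16 SE, adjusted p = 0.0159).

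The immunoproteasome subunits did not move together. Psmb8, which takes the place of Psmb5 as the chymotrypsin-like site, had log2 signals of 5.78, 5.80 and 5.45 in control and 7.46, 7.89 and 7.31 in shEp400. All 3 shEp400 values stood above the control values. Psmb8 rose 3.68-fold (log2 change 1.88 ± 0.20 SE, adjusted p = 0.000116). Its control level was near background, and the log2 change was 0.97 without background correction (adjusted p = 0.000171). A further, dimmer probe of Psmb8 was detected on 0 control arrays and 2 shEp400 arrays. Its groups overlapped and it did not pass the filter on dim probes, so the call rests on the brighter probe alone.

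Psmb10, which replaces Psmb7 as the trypsin-like site, went the other way. Its log2 signals were 9.60, 9.68 and 9.91 in control and 7.78, 8.15 and 8.13 in shEp400. Every shEp400 value lay more than 1 log2 unit below every control value. Psmb10 fell 3.27-fold (log2 change -1.71 ± 0.18 SE, adjusted p = 0.000113), and its other probe gave a log2 change of -2.02. Psmb9 replaces Psmb6, the subunit with the caspase-like site. The log2 signals of Psmb9 were 6.53, 6.75 and 6.53 in control and 7.02, 6.51 and 7.01 in shEp400. These groups overlapped through shEp400 array 2, and Psmb9 did not pass (log2 change 0.24, SE 0.19, 95% interval -0.18 to 0.66, limma adjusted p = 0.326).

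The constitutive counterparts did not pass the test. Psmb5 had log2 signals of 7.78, 7.83 and 8.21 in control and 8.003, 8.44 and 9.07 in shEp400, so that the groups overlapped (log2 change 0.57 ± 0.26 SE, adjusted p = 0.105). It passed without shEp400 array 1 (log2 change 0.82) and with array quality weights. Psmb6 had log2 signals of 12.02, 11.93 and 12.36 in control and 12.11, 12.39 and 12.30 in shEp400 (log2 change 0.16 ± 0.18 SE, adjusted p = 0.481). Those of Psmb7 were 12.45, 12.52 and 12.41 in control and 12.32, 12.44 and 12.20 in shEp400 (log2 change -0.14 ± 0.16 SE, adjusted p = 0.493). The groups overlapped for both genes. The other passing Psmb6 probe gave a log2 change of -0.13 and was not called. Of the 4 probes of Psmb7, 1 was called lower (log2 change -0.55) and 3 were not.

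**Figure D3:**
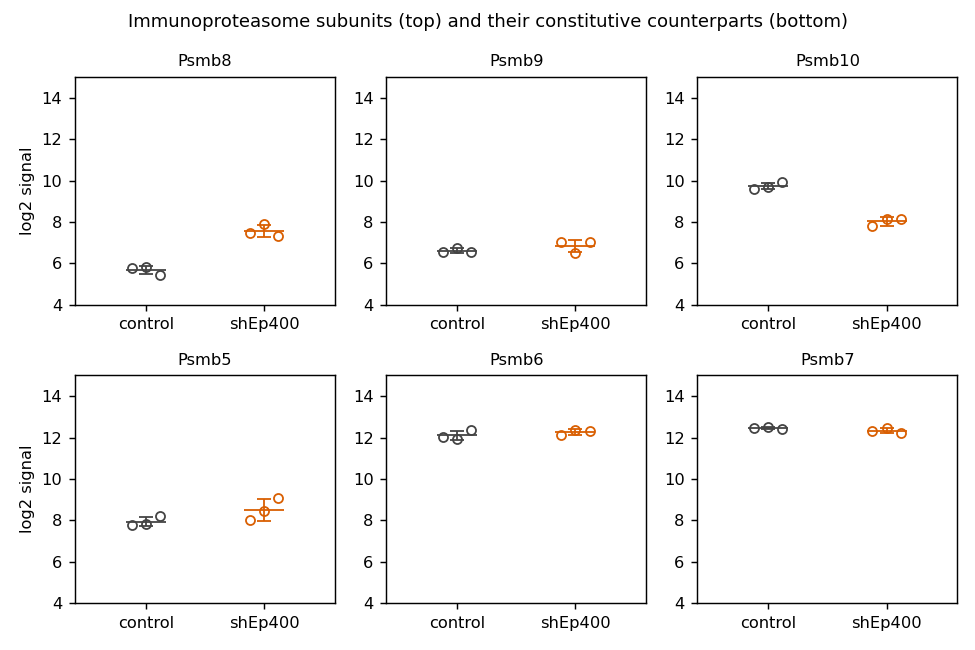
Normalized log2 signal (vertical axes, same range in every panel) of the immunoproteasome subunits Psmb8, Psmb9 and Psmb10 (top row) and of the constitutive subunits Psmb5, Psmb6 and Psmb7 (bottom row). Circles are the 3 arrays of a group, the wide line is their mean and the bar 1 SD. The groups are separate for Psmb8 (higher in shEp400) and Psmb10 (lower) and overlap in the other panels, and levels are not comparable between panels since each is a different probe.

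The difference between an immunoproteasome subunit and its counterpart was also taken within each array, on the normalized log2 values. Relative to the control mean, Psmb8 minus Psmb5 was 0.26, 0.23 and -0.49 on control arrays and 1.72, 1.72 and 0.50 on shEp400 arrays. The shEp400 values lay above the control values, with a change of 1.31 (exact two-sided permutation test, p = 0.1, adjusted p = 0.15 over 3 pairs). Psmb10 minus Psmb7 changed by -1.57, from -0.12, -0.11 and 0.23 in control to -1.80, -1.56 and -1.35 in shEp400 (exact p = 0.1, adjusted p = 0.15). Psmb9 minus Psmb6 changed by 0.08, and its groups overlapped (exact p = 0.8, adjusted p = 0.8). With 3 arrays against 3 the exact test cannot go below 0.1. Without background correction the change of Psmb8 minus Psmb5 was 0.53 (exact p = 0.3).

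Psmb9, Tap1, Psmb8 and Tap2 follow one another in this order on chromosome 17 (RefSeq), within the MHC region, and Tap1 and Tap2 form the transporter that carries peptides into the endoplasmic reticulum. Tap1 was above background on 0 of 3 control arrays and on all 3 shEp400 arrays. It passed the filter on dim probes only through the shEp400 arrays, so no p-value is given for it. Its level was higher by at least 1.84-fold. Here "at least" sets the mean of the bright group against that of the dim group at the lowest detected signal of each array or the probe's own, whichever is higher. Tap2, detected on 2 control arrays, rose 3.04-fold (log2 change 1.61 ± 0.31 SE, adjusted p = 0.00267). Psmb10 lies apart, on chromosome 8. Its nearest tested neighbour, the kinase gene Pskh1, rose (log2 change 0.69, limma adjusted p = 0.00771).

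Of 21 genes of interferon control and class I peptide supply 15 were tested, 11 rose, 1 fell and 3 did not pass, with a median log2 change of 1.26 (73.3% higher, where 20.6% of all tested genes were higher). The 11 include Tap1, which passed the filter only through its shEp400 arrays. The class I heavy chain H2-D1 rose 4.72-fold and its light chain B2m 3.97-fold, while the kinase Jak1 fell 2.18-fold (log2 change -1.12 ± 0.24 SE, adjusted p = 0.00464). The change of Psmb8 lay within the range of this list (-1.12 to 2.24) and that of Psmb10 below it, as the plot of these genes shows. The feeder marker medians were 1.58, 2.14 and 2.41 on the same shEp400 arrays, where this list had 0.90, 1.30 and 1.57. ES cell marker medians on these arrays were -0.29, -0.56 and -1.02. The part of either cell type in the changes of this list was not tested.

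**Figure D4:**
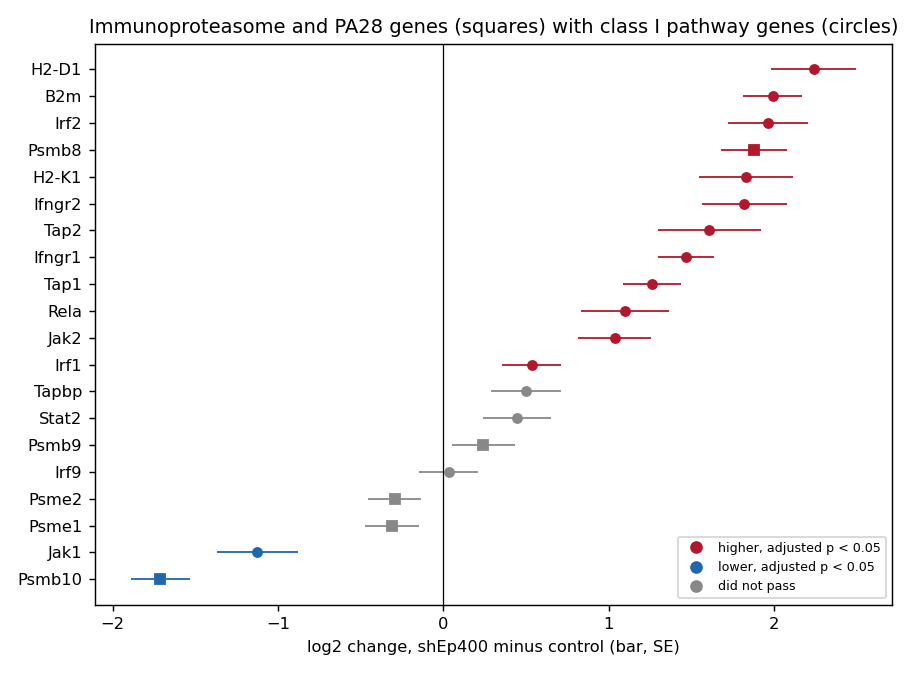
Log2 change, shEp400 minus control (points, with the SE as bars), of the immunoproteasome and PA28 genes (squares) and of the 15 tested genes of interferon control and class I peptide supply (circles). Psmb8 lies among the risen genes at 1.88, Psmb9, Psme1 and Psme2 lie between -0.31 and 0.24, and Psmb10 lies lowest at -1.71.

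PA28, an activator ring made of Psme1 and Psme2, is likewise interferon-inducible. Psme1 differed by -0.31 ± 0.16 on the log2 scale (SE; 95% interval -0.67 to 0.05, adjusted p = 0.147) and Psme2 by -0.29 ± 0.16 (SE; interval -0.65 to 0.06, adjusted p = 0.161). Neither passed, though for both the shEp400 values lay below all control values. A dimmer probe of Psme1 was called lower (log2 change -0.53). Psme3, the nuclear PA28 subunit, differed by -0.43 ± 0.17 on the log2 scale (SE; adjusted p = 0.0597) and passed in 7 of the 18 other settings. Psme4, the activator PA200, differed by 0.24 ± 0.15 on the log2 scale (SE; adjusted p = 0.23). Of these 4 tested activators 0 passed limma, where 43.7% of all tested genes did, and 1 (Psme3) had an unadjusted p under 0.05.

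In the alpha ring of the 20S core all 5 tested alpha genes had shEp400 values below every control value, and 3 of them fell, with a median log2 change of -0.47. Over all tested genes 30.3% had shEp400 below control without overlap and 23.1% were called lower. Of the 7 tested constitutive beta genes 0 passed limma at an adjusted p of 0.05, and 1 (Psmb4) had an unadjusted p under 0.05, with a median of -0.14, where 43.7% of all tested genes were called. The difference between the rings was not tested. Among the alpha genes Psma8, a testis-specific form of the alpha 4 subunit encoded by Psma7, fell most. Its log2 signals were 6.65, 6.85 and 7.30 in control and 5.80, 5.40 and 5.52 in shEp400. All 3 shEp400 values lay below the control values. Psma8 fell 2.57-fold (log2 change -1.36 ± 0.21 SE, adjusted p = 0.000736), its other probe gave -1.75, and without background correction the log2 change was -0.79.

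Psma7 had log2 signals of 11.62, 11.75 and 11.56 in control and 11.09, 11.16 and 10.90 in shEp400, again without overlap. It fell 1.51-fold (log2 change -0.59 ± 0.16 SE, adjusted p = 0.0147), its other probe gave -0.62, and the call was lost without control array 2. Psma2, of the same ring, fell 1.38-fold (log2 change -0.47, SE 0.15, adjusted p = 0.0309), a call lost with cyclic loess and in 5 of 6 fits without 1 array. Psma4 (-0.34) and Psma5 (-0.36) did not pass (adjusted p = 0.0977 and 0.0798) and were called lower in 7 of the other settings each. Among the beta genes Psmb4 had a log2 change of -0.37 (adjusted p = 0.0715), with separate groups, and passed in 8 other settings. Psmb2 (-0.22), Psmb3 (-0.20) and Psmb1 (0.07) did not pass. With 75th percentile scaling and with centring Psmb2, Psmb3 and Psmb7 were called lower, and the sign of Psmb1 turned.

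Of the 19S cap 15 genes were tested, 1 rose and 2 fell (20% called, against 43.7% of all tested genes), with a median log2 change of -0.18. Psmd8, a subunit of the lid that sits over the ATPase ring, rose 5.31-fold, the 91st largest rise among 9736 tested genes. Its log2 signals were 8.17, 7.997 and 8.62 in control and 9.96, 10.61 and 11.45 in shEp400. The lowest shEp400 value stood more than 1 log2 unit above the highest control value, and the 3 shEp400 values were far apart. The log2 change was 2.41 (SE 0.33, limma adjusted p = 0.000448) and stayed between 2.05 and 2.78 in all 18 other settings. Feeder marker medians on those 3 arrays were 1.58, 2.14 and 2.41, and their part in this rise was not tested. The value rests on 1 probe, since the other probe of Psmd8 was above background on no array. On chromosome 7 (RefSeq order) its nearest tested neighbours were Ggn and, on the other side, Kcnk6, which fell (log2 change -0.69, limma adjusted p = 0.0183). Ggn was called higher from a probe not well above background on any control array. That probe passed the filter only through the shEp400 arrays, so no p-value is given.

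Of the other 14 cap genes 2 fell and 12 did not pass, among them Psmd6, whose wide interval is given above. Psmd1, the largest scaffold of the cap base, fell 1.36-fold from log2 signals of 12.94, 12.88 and 12.79 to 12.52, 12.25 and 12.50 (log2 change -0.44 ± 0.16 SE, adjusted p = 0.048). The ATPase Psmc4 fell 1.34-fold from 12.29, 12.40 and 12.36 to 11.92, 11.92 and 11.96 (log2 change -0.42, SE 0.15, adjusted p = 0.0474). Groups were separate for both genes, yet the call of Psmc4 was lost in 6 and that of Psmd1 in 4 of 6 fits without 1 array. Both calls were also lost with cyclic loess and with every detected probe tested on its own. That of Psmd1 was lost with the mean of its detected probes too. The other ATPases had log2 changes of -0.36 (Psmc5), -0.18 (Psmc1), -0.09 (Psmc3) and 0.06 (Psmc2), and none of these 4 passed. Among non-ATPases Psmd14, the deubiquitinase of the lid, had a log2 change of -0.01 (SE 0.20, 95% interval -0.45 to 0.43). The ubiquitin receptor Psmd4 had -0.04 (SE 0.17) and the scaffold Psmd2, detected on 1 control and 2 shEp400 arrays, -0.03 (SE 0.31). Psmd12 (-0.31), Psmd13 (-0.27), Psmd7 (-0.23) and Psmd11 (0.17) did not pass either. Dimmer probes of Psmd12 (-0.93) and Psmd11 (-0.68) were called lower, so for these genes probes disagreed in size and, for Psmd11, in sign.

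Among the assembly factors of the 20S core Psmg1, Psmg2 and Psmg3 fell, Pomp did not pass and Psmg4 was not tested. Psmg1 and Psmg2 form a pair of chaperones on which the alpha ring is built, and Psmg3, with Psmg4, forms a further pair. Psmg1 had log2 signals of 10.42, 10.29 and 10.10 in control and 9.46, 9.21 and 8.86 in shEp400. The groups were separate. Psmg1 fell 2.13-fold (log2 change -1.09 ± 0.20 SE, adjusted p = 0.00173).

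Psmg2 fell 1.94-fold, from 10.39, 10.76 and 10.78 in control to 9.90, 9.63 and 9.54 in shEp400 (log2 change -0.96 ± 0.18 SE, adjusted p = 0.00251). Its 3 probes gave -0.96, -0.90 and -0.86. Psmg3 fell 1.45-fold, from 9.14, 9.25 and 9.31 to 8.94, 8.75 and 8.40 (log2 change -0.54, SE 0.18, adjusted p = 0.036), a call lost with cyclic loess and in 5 of 6 fits without 1 array. For each of these 3 genes the groups were separate, with shEp400 below control, though the dimmest Psmg2 probe overlapped. The chaperones of the 19S base did not pass, with log2 changes of -0.43 for Psmd5, 0.08 for Psmd10 and 0.20 for Psmd9. Of the 6 tested assembly factors 3 fell and 0 rose (50% lower, where 23.1% of all tested genes were lower). Pomp, the maturation factor of the core outside the naming rule, differed by -0.22 ± 0.15 on the log2 scale (SE; adjusted p = 0.282).

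**Figure D5:**
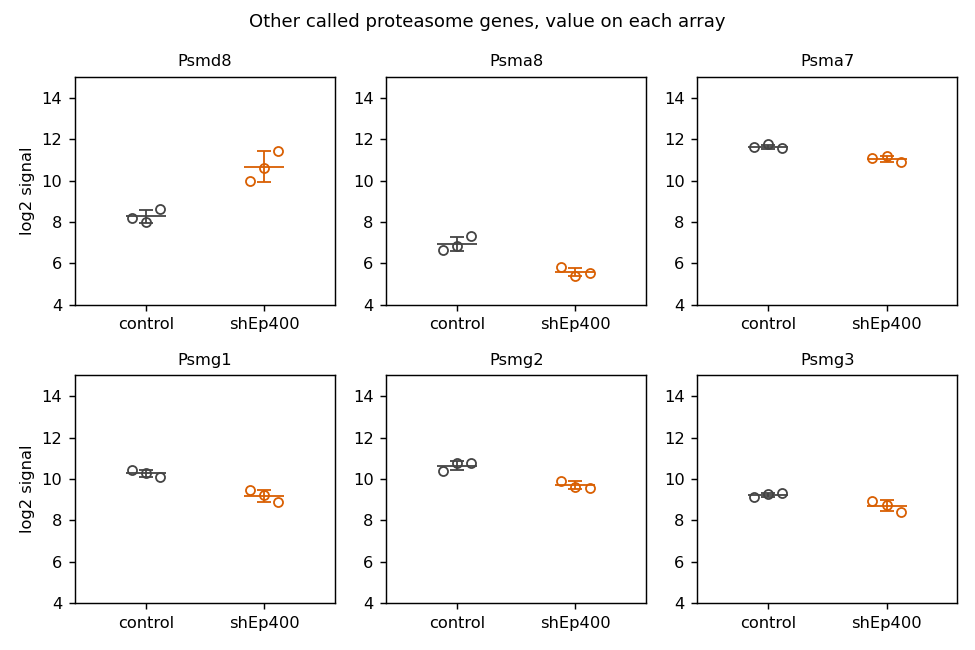
Normalized log2 signal (vertical axes, same range in every panel) of Psmd8, Psma8, Psma7, Psmg1, Psmg2 and Psmg3 on each array. Circles are the 3 arrays of a group, the wide line is their mean and the bar 1 SD. Psmd8 stands higher in shEp400 and the other 5 genes stand lower, with no overlap between groups in any panel.

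Of the symbols named for a partner, Psmc3ip (also known as Hop2) works in meiotic recombination and is no proteasome subunit. Its log2 signals were 10.32, 10.39 and 10.33 in control and 9.47, 9.40 and 8.70 in shEp400, without overlap. It fell 2.23-fold (log2 change -1.16 ± 0.22 SE, adjusted p = 0.00221). Psme3ip1, which binds Psme3, did not pass (log2 change 0.14, SE 0.16, adjusted p = 0.529).

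In 3 lists of other pathway factors the share of genes called was below the 43.7% of all tested genes. Of 16 proteasome-bound factors 11 were tested, 2 rose and 2 fell (36.4% called), with a median log2 change of -0.19. Zfand2a, a stress-induced zinc finger protein that binds the cap, rose 2.86-fold (log2 change 1.52 ± 0.22 SE, adjusted p = 0.000577). Ecpas, which tethers core and cap, rose 1.78-fold (adjusted p = 0.042). The ubiquitin ligase Ubr4 fell 1.56-fold (adjusted p = 0.0256) and the cap deubiquitinase Uchl5 1.47-fold (adjusted p = 0.0259).

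Of 18 ubiquitin genes, E1 enzymes and shuttles 10 were tested, 1 rose and 2 fell (30% called, against 43.7% of all tested genes). The shuttle Ubqln4 fell (log2 change -1.05 ± 0.17 SE, adjusted p = 0.00121) and so did Faf1, a partner of the segregase Vcp (1.52-fold lower), while Nploc4, another partner of Vcp, rose 1.45-fold. Vcp itself differed by 0.13 ± 0.16 on the log2 scale (SE; adjusted p = 0.548). Of 14 genes of transcriptional control 10 were tested, 2 rose (20%, against 20.6% of all tested genes) and 2 fell (20%, against 23.1%). Nfe2l1 encodes the factor that induces proteasome genes when proteasome activity is short. Its log2 signals were 10.35, 10.39 and 10.49 in control and 11.20, 11.48 and 11.35 in shEp400.

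The groups of Nfe2l1 were separate, and it rose 1.91-fold (log2 change 0.93 ± 0.16 SE, adjusted p = 0.00143). Of the 5 members whose windows hold the TGACNNNGC core, Psmb5 (log2 change 0.57), Psmd9 (0.20), Psmb6 (0.16) and Psmd12 (-0.31) did not pass. Psmc6 was not tested. Maff, a small partner of such factors, was above background on 0 control and 3 shEp400 arrays, with a level at least 1.23-fold higher. It passed the filter only through the shEp400 arrays, so no p-value is given, though it is counted among the risen genes of transcriptional control. Nfyb, a subunit of NF-Y, fell 2.08-fold and Stat3 1.59-fold. Nfe2l2 had a log2 change of -0.12 (SE 0.23).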

How the data were processed

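Values deposited by the authors were signal intensities on a linear scale with a detection p-value per probe, per the file headers, 1 array per sample. Upper quartiles differed between arrays (141 to 195) and no signal was below 77.6, so neither scaling nor full background subtraction is visible in them. Per the submitters' processing notes GenomeStudio was used; no version is given in the sources at hand. Detected probes numbered 15441 to 17337 per array, and the number of arrays limits the precision. The authors' processed table (linear intensity, median 114 on every array) served as an alternative. In the platform annotation 34885 probes have 1 symbol, 18 have several and 10378 have none, and RefSeq changed 0 symbols. Probe sequences were not used here, so cross-hybridization was not checked.

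Signals were processed with neqc in limma 3.58.1 (R 4.3.3; offset 16, background from detection p-values, quantile normalization). A detection p below 0.01 on 3 or more arrays was required, and the brightest probe stood for each of 9736 genes. Groups were compared with lmFit and eBayes, two-sided, without covariates (4 residual degrees of freedom), with Benjamini-Hochberg adjustment over all tested genes at 0.05. Pairs of subunits within an array were compared with exact permutation tests. Correlations between arrays (0.892 to 0.986) showed no array deposited more than once. The steps were tested on simulated data. Named were all members, and the 2 largest called rises and falls of each companion list; other genes (chromosomal neighbours, Tap1, Tap2, Vcp, Pomp and Nfe2l2) were chosen after their values were seen. The members and lists were chosen with earlier results of these data known. Alternatives covered background, normalization, filter, probe choice, variance model, weights and each left-out array.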

Additional observations from a re-analysis of the deposited data

How the results depend on the processing

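Of 12 called members 7 kept their call in all 18 other settings, 0 changed sign, and 14 of 30 uncalled members were called in at least 1 setting. The count of members that fell, 10, became 16 without background correction, 16 with the deposited processed values and 16 with array quality weights. It became 22 with 75th percentile scaling, 22 with centring and 6 with cyclic loess, and 5 to 9 when 1 array was left out. Of all tested genes 23.1% fell in the main setting, and 23.3% both without background correction and with the deposited values. The share was 28.3% with 75th percentile scaling, 26.3% with centring and 17.1% with cyclic loess. For array quality weights and for the fits without 1 array the share is not given here. The cause of these changes in the count was not tested. The change of Psmb9 minus Psmb6 turned to -0.028 without background correction and with the deposited values, and ranged from -0.090 to 0.30 without 1 array. Signs turned, without a call, with cyclic loess for Psmc3 (0.056), Psmd14 (0.13) and Psmd4 (0.091). With 75th percentile scaling they turned for Psmb1 (-0.26), Psmb6 (-0.17), Psmc2 (-0.31), Psmd10 (-0.083) and Psme4 (-0.025), and with centring for Psmb1 (-0.22), Psmb6 (-0.13), Psmc2 (-0.28) and Psmd10 (-0.049). They also turned for Psmd11 with the mean of its probes (-0.26) and, with array quality weights, for Psmb9 (-0.043), Psmc3 (0.060), Psmd2 (0.32) and Psmd4 (0.11). Without 1 array the ranges were -0.082 to 0.64 for Psmd9, -0.025 to 0.13 for Psmc2, -0.16 to 0.10 for Psmd14, -0.18 to 0.046 for Psmc3, -0.23 to 0.25 for Psmd2, -0.14 to 0.010 for Psmd4 and -0.034 to 0.36 for Psmd11. No paired analysis was possible because the labels give no replicate numbers that the groups share. Genes near background, such as Psmb8 and Psma8, have changes whose size depends on the background correction.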
